A study of Mus musculus with 12 samples.

Results

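The question of these data was whether IVF, conception by in vitro fertilization, moved a gene's liver level by the same amount in mice with and without the transcription factor ATF7. The quantity that answers it is the interaction, the log2 difference between IVF and natural mating in Atf7-/- mice minus the same difference in wild-type (WT) mice. It was fitted for all 34760 probe sets over all 12 arrays of the series, 3 in each of 4 groups. An interaction below 0 means that the level moved up less, or down more, with IVF in Atf7-/- than in WT, and an interaction above 0 means the reverse.

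The groups were WT mice from natural mating, WT mice from IVF, Atf7-/- mice from natural mating and Atf7-/- mice from IVF, all males on the C57BL6/JJmsSlc background. Both parents of an Atf7-/- mouse lacked Atf7 and both parents of a WT mouse were WT, so maternal and offspring genotype cannot be told apart. IVF pups came from hormone-stimulated oocyte donors and were carried by ICR foster mothers, so ovarian stimulation, embryo culture and transfer to another strain were shared by both IVF groups and by neither natural mating group. Each liver was from a mouse of another mother or recipient. The sample records give an age of 4 weeks and the study's methods 3 weeks. Total liver RNA was read on Affymetrix Mouse Gene 1.0 ST arrays and summarised by robust multiarray averaging (RMA) to log2 levels, called RMA levels here. In such bulk tissue, fewer cells of a type and less RNA per cell cannot be told apart.

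ATF7 is a factor of the ATF/CREB family that binds cAMP response elements and represses genes through enzymes that methylate histone H3 on lysine 9, and stress kinases release it from DNA. A group described first below makes cholesterol. In the liver, SREBP2, the product of Srebf2, switches on nearly every enzyme of that route when membrane sterol is low, and the INSIG proteins hold it back when sterol is plentiful. Cholesterol leaves the liver cell mainly as bile acids and in lipoproteins.

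Calls needed both an absolute log2 difference of 0.6 or more and a limma p, adjusted by Benjamini-Hochberg over all probe sets, no higher than 0.05, which were the study's own thresholds. The interaction was called in 2148 probe sets (6.18% of 34760), of which 945 lay above 0 (2.72%) and 1203 below 0 (3.46%). With each array centred on its median, the split was 711 above and 1628 below 0, so that the share above 0 went from 44.0% to 30.4%. Without Atf7-/- IVF replicate 3 only 624 lay above 0. No gene symbol was given for 52.9% of the called probe sets above 0 and 22.5% of those below 0, against 33.9% of all. Counted as genes, with the brightest probe set for each of 19937 symbols, 294 were called above 0 (1.47%) and 843 below 0 (4.23%), and these 2 shares are the background for the gene lists below. The median interaction over all genes was 0.00.

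Signs of the IVF difference were opposite in the 2 genotypes for most called probe sets, which a large difference between the 2 favours by construction. Of the 1203 below 0, the level was higher with IVF in WT and lower with IVF in Atf7-/- in 965, and the median log2 differences with IVF were 0.41 in WT and -0.57 in Atf7-/-. Of the 945 above 0, it was lower with IVF in WT and higher in Atf7-/- in 834, with medians of -0.44 and 0.64. Over all probe sets these 2 patterns of signs made up 19.0% and 26.1%, against 80.2% of the calls below 0 and 88.3% of those above. The other calls had the same sign in both genotypes and a different size. Over all probe sets the IVF differences of WT and Atf7-/-, which share no arrays, correlated across probe sets with Pearson's r of 0.133, and probe sets are not independent replicates.

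The contrast gives the 4 groups equal weight, and the natural mating groups were the ones that stood apart. The group mean farthest from the mean of the other 3 was Atf7-/- natural mating in 1234 called probe sets and WT natural mating in 805, against 64 for WT IVF and 45 for Atf7-/- IVF. Over all 34760 probe sets the same groups stood farthest in 33.7%, 31.0%, 19.3% and 16.0%. Between genotypes, 2606 probe sets (7.5%) were called within natural mating and 2 (0.00575%) within IVF by limma, with 9246 and 2126 at an unadjusted p under 0.05. Leaving out each array in turn gave 2 to 6 calls within IVF and 2133 to 2759 within natural mating. The 2 calls within IVF were the Atf7 probe set given next and Ifi202b.

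**Figure D1:**
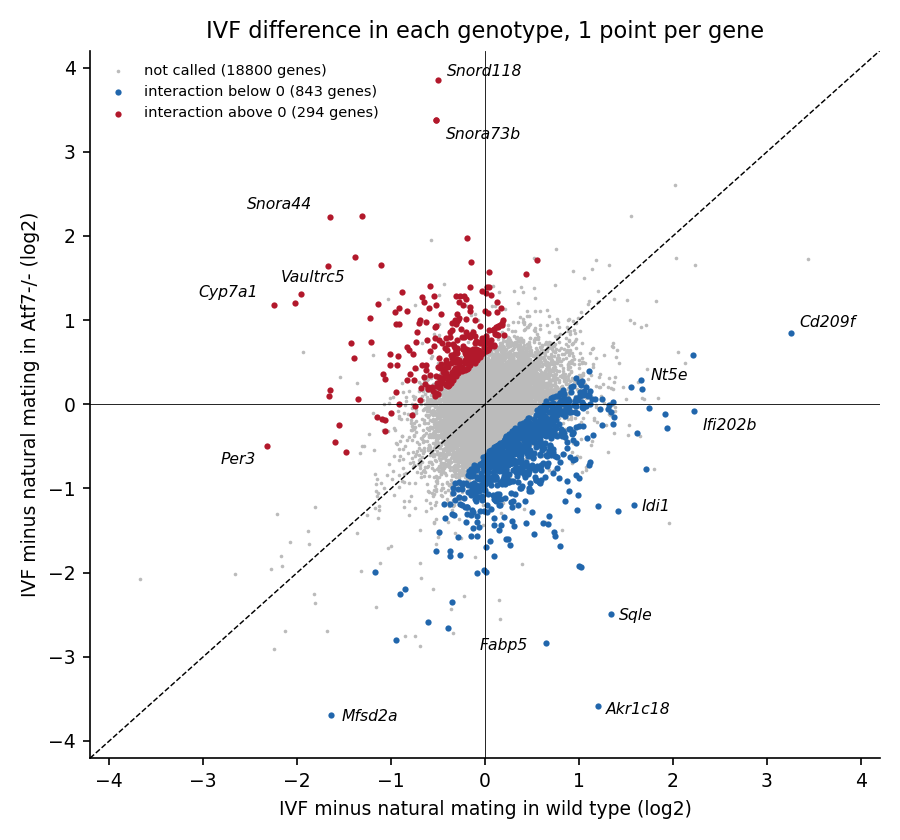
Log2 difference between IVF and natural mating in WT (x axis) and in Atf7-/- (y axis), 1 point per gene, with the 843 genes called below 0 in blue, the 294 called above 0 in red and the rest in grey. The dashed line marks equal differences. Most blue genes lie to the lower right, where IVF went with a higher level in WT and a lower one in Atf7-/-, and most red genes to the upper left.

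Atf7 itself checked the labels. Its probe set 10433032 read 8.94, 8.81 and 8.58 on the WT natural mating arrays, 8.18, 8.38 and 7.57 on the WT IVF arrays, 5.82, 6.11 and 5.94 on the Atf7-/- natural mating arrays, and 5.34, 5.68 and 5.52 on the Atf7-/- IVF arrays, a difference between genotypes of -2.82 (adjusted p = 1.93e-05) in natural mating and -2.53 (adjusted p = 0.000752) in IVF. The interaction of this probe set was 0.30 (SE 0.27, adjusted p = 0.58). A second and brighter Atf7 probe set, 10433034, had an interaction of -0.05 (SE 0.16, adjusted p = 0.897) and a difference between genotypes of -0.34 (SE 0.11, adjusted p = 0.0758) in natural mating. Where the probes lie against the deleted part of the gene was not analysed here. Within a group, array pairs had a Pearson's r across probe sets between 0.980 and 0.990, and array medians ran from 6.22 to 6.34. The WT and Atf7-/- IVF arrays correlated with each other at 0.982 to 0.988 and the 2 natural mating groups at 0.973 to 0.978. Mean levels of 9 hepatocyte markers lay between 12.91 and 13.07 on every array.

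Genes of cholesterol synthesis made up the list with the highest share of calls below 0 among the 55 lists. These lists were chosen with earlier results of these data known, and the study had already described Idi1 and related genes. The share is therefore a description and not a test. Of 18 measured genes 13 were called below 0 (72.2%, background 4.23%), 0 were called above 0, and all 18 had an interaction below 0, with a median of -1.89. The median IVF difference was 0.53 in WT and -1.21 in Atf7-/-. The mean RMA level of the 18 genes was 8.77, 8.88 and 9.43 on the WT natural mating arrays, 9.70, 9.56 and 9.71 on the WT IVF arrays, 9.79, 10.35 and 10.14 on the Atf7-/- natural mating arrays, and 8.61, 9.43 and 8.65 on the Atf7-/- IVF arrays. The 3 Atf7-/- natural mating arrays were above all other arrays. Replicate 3 of WT natural mating and replicate 2 of Atf7-/- IVF were well above the other arrays of their groups. Leaving out each array in turn left 11 to 15 of the 18 called, each below 0.

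Printed below are the 250 bases before the start of 5 called genes of this list, since these genes moved together and ATF7 and SREBP2 act at promoters. The sequences are from RefSeq (GRCm38.p6), which held starts for 15 of the 18 genes, and run 5′ to 3′ on the strand of the gene. Capitals mark the CCAAT box, a site of the factor NF-Y, as CCAAT or its reverse complement ATTGG, and the sterol element core CACCCCAC. Idi1 is at chr13:8885356-8885605 (plus strand), Nsdhl at chrX:72918271-72918520 (plus), Hmgcs1 at chr13:119690101-119690350 (plus), Cyp51 at chr5:4104698-4104947 (minus) and Msmo1 at chr8:64733579-64733828 (minus).
Idi1: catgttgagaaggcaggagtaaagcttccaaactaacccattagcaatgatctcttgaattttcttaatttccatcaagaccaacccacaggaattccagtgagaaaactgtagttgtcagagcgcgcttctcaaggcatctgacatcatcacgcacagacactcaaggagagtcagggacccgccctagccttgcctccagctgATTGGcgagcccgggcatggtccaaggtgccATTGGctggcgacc
Nsdhl: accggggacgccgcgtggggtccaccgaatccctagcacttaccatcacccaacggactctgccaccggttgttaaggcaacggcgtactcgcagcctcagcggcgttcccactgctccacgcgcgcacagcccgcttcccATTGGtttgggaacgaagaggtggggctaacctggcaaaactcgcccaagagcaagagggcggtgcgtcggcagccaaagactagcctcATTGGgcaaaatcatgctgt
Hmgcs1: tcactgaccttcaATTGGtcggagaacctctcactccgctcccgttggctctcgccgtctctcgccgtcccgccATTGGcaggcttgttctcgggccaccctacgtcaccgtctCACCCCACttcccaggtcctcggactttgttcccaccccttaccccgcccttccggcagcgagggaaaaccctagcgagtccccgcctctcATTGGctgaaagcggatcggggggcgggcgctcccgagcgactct
Cyp51: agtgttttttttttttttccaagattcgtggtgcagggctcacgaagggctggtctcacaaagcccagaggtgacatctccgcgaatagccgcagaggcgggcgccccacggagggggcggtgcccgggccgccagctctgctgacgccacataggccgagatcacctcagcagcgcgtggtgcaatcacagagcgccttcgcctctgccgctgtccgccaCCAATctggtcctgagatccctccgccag
Msmo1: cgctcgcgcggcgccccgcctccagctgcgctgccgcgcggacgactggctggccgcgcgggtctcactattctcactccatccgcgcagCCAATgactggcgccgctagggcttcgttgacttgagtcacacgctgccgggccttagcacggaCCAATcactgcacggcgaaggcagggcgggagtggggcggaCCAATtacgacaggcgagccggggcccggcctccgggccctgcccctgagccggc
The list had 18 promoters for its 15 genes with a start, since Dhcr7 and Pmvk have more than 1. A CCAAT box stood on either strand in 15 of these 18 promoters (83.3%) and in 33.8% of all 32851 promoters in the table. Those without it were starts of Dhcr7 and Pmvk, which each also had a start with it. It stood in 10 of the 11 promoters of called list genes (90.9%). Over all called genes it was in 34.6% of promoters above 0 and 38.1% below 0, and in 34.5% for all genes tested. The full cAMP response element TGACGTCA was in 0 of the 18, in 2.02% of the promoters of all genes tested, and in 3.75% and 3.22% of those of genes called above and below 0. The shorter element TGACG, which the full element contains, was in 6 of the 18 (33.3%), in 21.4% of the promoters of all genes tested, and in 26.7% and 25.8% of those of genes called above and below 0. The sterol element core was in 1 of the 18 (5.56%) and 2.66% of the promoters of genes tested, and the E-box CACGTG in 3 (16.7%) and 6.99%. These are descriptions of letters in a short window, with no test.

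Along the pathway the early enzymes come first. Hmgcs1, which makes HMG-CoA, had an interaction of -1.88 (SE 0.37, adjusted p = 0.0135), the mevalonate kinase Mvk of -1.27 (SE 0.20, adjusted p = 0.00467), the kinase Pmvk that follows it of -1.54 (SE 0.39, adjusted p = 0.0397), and Mvd, the decarboxylase that follows them, of -1.41 (SE 0.49, adjusted p = 0.116), which was not called. Idi1, which interconverts the 2 isoprene units and is 1 of the genes named in the study's text, read 8.17, 8.72 and 9.41 with natural mating and 10.43, 10.03 and 10.57 with IVF on the WT arrays. Idi1 on the Atf7-/- arrays read 10.13, 10.68 and 10.81 with natural mating and 8.59, 10.18 and 9.27 with IVF. All WT IVF and Atf7-/- natural mating arrays and replicate 2 of Atf7-/- IVF were above 10, and no WT natural mating array was. Its interaction was -2.78 (SE 0.56, adjusted p = 0.0143), and its IVF difference was 1.58 (SE 0.39, adjusted p = 0.0327) among WT and -1.20 (SE 0.39, adjusted p = 0.072) among Atf7-/- mice. A dimmer Idi1 probe set gave -1.51 (SE 0.51, adjusted p = 0.105). Fdps, which joins isoprene units into farnesyl diphosphate, had -2.30 (SE 0.47, adjusted p = 0.016) and Fdft1, the squalene synthase, -1.37 (SE 0.22, adjusted p = 0.00565).

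The sterol-forming enzymes come next. Sqle, the squalene epoxidase that controls flux into the sterol ring, read 7.38, 7.68 and 9.44 with natural mating and 9.71, 9.13 and 9.68 with IVF on the WT arrays. Sqle on the Atf7-/- arrays read 9.37, 10.44 and 9.86 with natural mating and 6.65, 8.97 and 6.58 with IVF. Its interaction was -3.83 (SE 0.92, adjusted p = 0.0317), and 2 of the Atf7-/- IVF arrays lay below all others. Lss, which closes the ring, had -1.90 (SE 0.39, adjusted p = 0.0166), and Cyp51, the lanosterol demethylase, had -2.68 (SE 0.56, adjusted p = 0.0168). Nsdhl, a C4 demethylation enzyme, read 8.67, 8.93 and 9.63 with natural mating and 10.12, 10.04 and 10.13 with IVF on the WT arrays. Nsdhl on the Atf7-/- arrays read 10.43, 10.98 and 11.08 with natural mating and 8.39, 9.96 and 8.36 with IVF. Every Atf7-/- natural mating array was above every other array. Its interaction was -2.95 (SE 0.55, adjusted p = 0.0102), beside -2.41 (SE 0.43, adjusted p = 0.0081) for its partner Msmo1 and -2.25 (SE 0.30, adjusted p = 0.00242) for Hsd17b7, the third enzyme of that step. Tm7sf2, a sterol reductase, had -2.09 (SE 0.25, adjusted p = 0.00133), and Dhcr7, which reduces 7-dehydrocholesterol to cholesterol, had -1.27 (SE 0.36, adjusted p = 0.0602) and was not called. Mvd was called without WT natural mating replicate 3 and with array weights, and Dhcr7 without that array or Atf7-/- IVF replicate 2, with array weights, median centring, the filter on dim probe sets and either restriction to named probe sets. Naming all called enzymes of this list goes beyond the rule and was decided after their values were seen. Sqle lost its call when any array was left out except WT natural mating replicate 3, Atf7-/- natural mating replicate 1 and Atf7-/- IVF replicate 2 (adjusted p up to 0.0778). Pmvk lost its call when any array was left out except WT natural mating replicate 3, Atf7-/- natural mating replicate 1 and Atf7-/- IVF replicate 2 (adjusted p up to 0.0945).

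**Figure D2:**
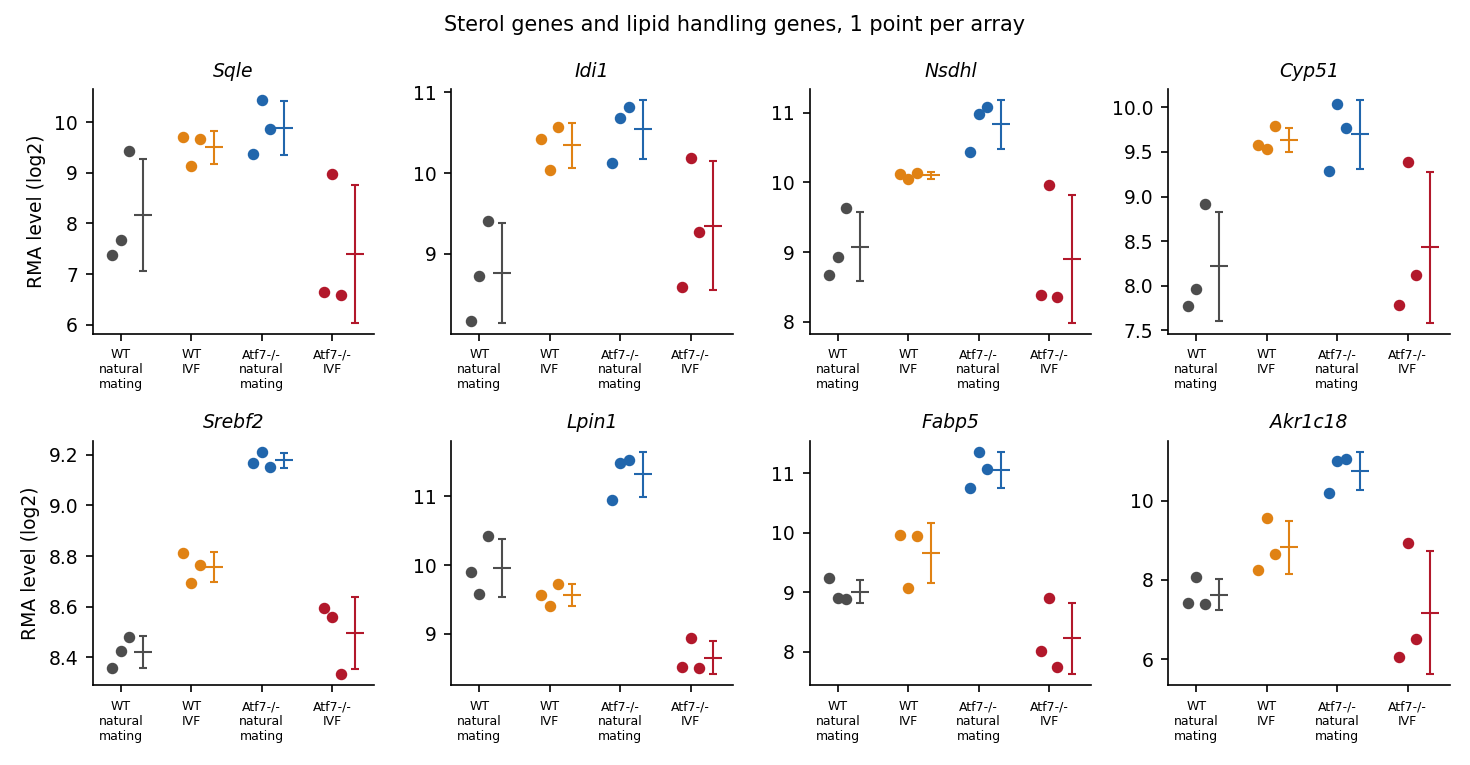
RMA levels (log2) of 8 genes on each of the 12 arrays, 3 points per group, with the mean and SD beside them. Srebf2 and Fabp5 were higher on all Atf7-/- natural mating arrays than on any other array, and Sqle was lowest on 2 of the 3 Atf7-/- IVF arrays.

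Of 13 measured regulators of SREBP and sterol uptake 2 were called, both below 0. Srebf2 read 8.36, 8.43 and 8.48 with natural mating and 8.81, 8.69 and 8.76 with IVF on the WT arrays. Srebf2 on the Atf7-/- arrays read 9.17, 9.21 and 9.15 with natural mating and 8.60, 8.56 and 8.33 with IVF. The groups did not overlap except that WT natural mating and Atf7-/- IVF did, and Atf7-/- natural mating was highest. Its interaction was -1.01 (SE 0.13, adjusted p = 0.00151). Lpin1, a phosphatidate phosphatase that also holds SREBP out of the nucleus, read 9.89, 9.58 and 10.42 with natural mating and 9.57, 9.40 and 9.72 with IVF on the WT arrays. Lpin1 on the Atf7-/- arrays read 10.95, 11.48 and 11.53 with natural mating and 8.53, 8.94 and 8.51 with IVF. Its interaction was -2.26 (SE 0.31, adjusted p = 0.00268), and WT natural mating overlapped WT IVF. The retention factors Insig1 at -0.86 (SE 0.44, adjusted p = 0.292) and Insig2 at -0.68 (SE 0.28, adjusted p = 0.173), the escort Scap at -0.86 (SE 0.24, adjusted p = 0.0535) and Srebf1, which drives fatty acid genes, at 0.55 (SE 0.47, adjusted p = 0.542) were not called. Insig1 was called without WT natural mating replicate 3 and Scap without Atf7-/- IVF replicate 1. Scap was also called with a replicate block, trend and robust variances, array weights, median centring, the filter on dim probe sets and either restriction to named probe sets.

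Fatty acid synthesis and desaturation leaned the same way with more spread. Of 23 genes 5 were called below 0 (21.7%) and 0 above, 22 had an interaction below 0, and the median was -0.97. The called genes were the elongases Elovl5 at -1.09 (SE 0.22, adjusted p = 0.0153) and Elovl1 at -0.97 (SE 0.23, adjusted p = 0.0319), the acyltransferase Agpat2 at -0.93 (SE 0.14, adjusted p = 0.00347), the citrate carrier Slc25a1 at -0.92 (SE 0.23, adjusted p = 0.0347) and the desaturase Fads1 at -0.63 (SE 0.16, adjusted p = 0.0388). Fasn, the fatty acid synthase, had -2.48 (SE 0.94, adjusted p = 0.147) and Elovl6, which lengthens palmitate, -2.71 (SE 1.19, adjusted p = 0.212), both uncalled and named after their values were seen. Both were called without Atf7-/- IVF replicate 2, and Fasn also without WT natural mating replicate 3. The SDs of Elovl6 were up to 2.18 within a group, with levels of 10.61 ± 0.97 on the WT natural mating arrays, 10.77 ± 0.04 on the WT IVF arrays, 11.34 ± 0.36 on the Atf7-/- natural mating arrays and 8.79 ± 2.18 on the Atf7-/- IVF arrays. In the fatty acid synthesis and desaturation list, 2 were called below 0 when any array was left out except WT natural mating replicates 2 and 3, WT IVF replicate 2, Atf7-/- natural mating replicate 1 and Atf7-/- IVF replicate 2, 3 were called below 0 without WT natural mating replicate 2 or WT IVF replicate 2, 8 were called below 0 without WT natural mating replicate 3 and 12 were called below 0 without Atf7-/- IVF replicate 2. Elovl1 lost its call when any array was left out except WT natural mating replicate 3 and Atf7-/- IVF replicate 2 (adjusted p up to 0.0776) and under further quantile normalization. Slc25a1 lost its call when any array was left out except WT natural mating replicate 3, Atf7-/- natural mating replicate 1 and Atf7-/- IVF replicate 2 (adjusted p up to 0.0785) and under further quantile normalization. Fads1 lost its call when any array was left out except WT natural mating replicate 2, Atf7-/- natural mating replicate 1 and Atf7-/- IVF replicate 2 (adjusted p up to 0.0935).

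Genes of lipid transport and storage included 1 of the 12 lowest values. Fabp5, a fatty acid binding protein, read 9.24, 8.90 and 8.89 with natural mating and 9.96, 9.07 and 9.95 with IVF on the WT arrays. Fabp5 on the Atf7-/- arrays read 10.75, 11.35 and 11.08 with natural mating and 8.02, 8.90 and 7.75 with IVF. Its interaction was -3.49 (SE 0.44, adjusted p = 0.00161), and a second Fabp5 probe set gave -3.55 (SE 0.44, adjusted p = 0.00146). All 3 Atf7-/- natural mating arrays were above every other array. Pltp, the phospholipid transfer protein, had -1.34 (SE 0.29, adjusted p = 0.0192), the lipid loading gene Mttp had -0.75 (SE 0.18, adjusted p = 0.0282) and Sar1b, for export of lipoproteins, -0.80 (SE 0.21, adjusted p = 0.046), and Apoc3, an inhibitor of lipoprotein lipase, had -0.67 (SE 0.15, adjusted p = 0.0219). Apom, which carries sphingosine-1-phosphate on HDL, was called above 0 at 1.23 (SE 0.17, adjusted p = 0.00225), with levels of 10.70 ± 0.17 on the WT natural mating arrays, 10.77 ± 0.11 on the WT IVF arrays, 9.52 ± 0.17 on the Atf7-/- natural mating arrays and 10.82 ± 0.10 on the Atf7-/- IVF arrays (SD, n = 3 for each group). Of 18 genes of lipoproteins 3 were called below 0 and 1 above. In the apolipoproteins and lipoprotein assembly list, 0 were called below 0 without WT natural mating replicate 2, WT IVF replicate 3, Atf7-/- natural mating replicates 1 or 2 or Atf7-/- IVF replicate 3 and 1 was called below 0 without WT natural mating replicate 1, Atf7-/- natural mating replicate 3 or Atf7-/- IVF replicate 1. Of 40 PPAR alpha targets and genes of fatty acid oxidation 4 were called below 0 (10%), which were Pltp, the lipase inhibitor Angptl4 at -1.34 (adjusted p = 0.0387), the peroxisome gene Pex11a at -1.03 (adjusted p = 0.0437) and the lipid droplet coat gene Plin2 at -0.83 (adjusted p = 0.0412), and Acadl, an acyl-CoA dehydrogenase, was called above 0 at 0.65 (adjusted p = 0.0231). Ppara itself had -0.25 (SE 0.23, adjusted p = 0.584) and was not called. In the PPAR alpha targets and fatty acid oxidation list, 5 were called above 0 without WT natural mating replicate 3, 0 were called below 0 without WT IVF replicate 1 or Atf7-/- IVF replicate 3, 1 was called below 0 without WT IVF replicate 3, Atf7-/- natural mating replicates 1 or 3 or Atf7-/- IVF replicate 1 and 2 were called below 0 without WT natural mating replicate 3 or Atf7-/- natural mating replicate 2. Pltp lost its call without WT IVF replicate 1 or Atf7-/- IVF replicate 3 (adjusted p up to 0.0516). Mttp lost its call when any array was left out except WT natural mating replicate 3, WT IVF replicates 1 and 2 and Atf7-/- IVF replicate 2 (adjusted p up to 0.0662). Sar1b lost its call when any array was left out except Atf7-/- IVF replicate 2 (adjusted p up to 0.0991) and under further quantile normalization. Apoc3 lost its call without WT natural mating replicate 2, WT IVF replicate 3, Atf7-/- natural mating replicates 1 or 2 or Atf7-/- IVF replicate 3 (adjusted p up to 0.0574). Angptl4 lost its call when any array was left out except WT natural mating replicate 2 and WT IVF replicate 2 (adjusted p up to 0.0913) and under further quantile normalization. Pex11a lost its call when any array was left out except WT natural mating replicate 1 and WT IVF replicate 2 (adjusted p up to 0.098) and under further quantile normalization. Plin2 lost its call when any array was left out except WT natural mating replicate 2, WT IVF replicate 2 and Atf7-/- IVF replicate 2 (adjusted p up to 0.0974). Acadl lost its call without WT natural mating replicate 1, WT IVF replicates 1 or 2, Atf7-/- natural mating replicates 2 or 3 or Atf7-/- IVF replicate 3 (adjusted p up to 0.0584) and under median centring.

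Bile acid synthesis gave calls both ways. Cyp7a1, the rate-limiting enzyme of the classic route, read 11.29, 11.76 and 11.72 with natural mating and 8.60, 10.63 and 8.79 with IVF on the WT arrays. Cyp7a1 on the Atf7-/- arrays read 10.40, 9.50 and 10.72 with natural mating and 11.80, 10.29 and 12.08 with IVF. WT natural mating was above 11 on all arrays, and WT IVF replicate 2 and Atf7-/- IVF replicate 2 stood apart from the other arrays of their groups. Its interaction of 3.43 (SE 0.81, adjusted p = 0.0292) was the largest above 0 among genes that the naming rule admits. Hsd3b7, the second enzyme of that route, went the other way and read 9.43, 9.38 and 9.97 with natural mating and 10.73, 10.53 and 10.86 with IVF on the WT arrays. Hsd3b7 on the Atf7-/- arrays read 11.51, 11.14 and 11.40 with natural mating and 10.69, 10.60 and 10.70 with IVF. The interaction of Hsd3b7 was -1.80 (SE 0.23, adjusted p = 0.00161). WT natural mating was lowest and Atf7-/- natural mating highest, with no overlap of either with another group. Akr1d1, the next reductase, had 0.97 (SE 0.15, adjusted p = 0.00477), Baat, which joins bile acids to amino acids, 0.92 (SE 0.21, adjusted p = 0.0229), and Amacr, a racemase of the side chain route, -0.64 (SE 0.16, adjusted p = 0.0397). Of 27 genes 3 were called above 0 and 2 below. In the bile acid synthesis and transport list, 1 was called above 0 without WT IVF replicate 1, Atf7-/- natural mating replicate 2 or Atf7-/- IVF replicate 3 and 1 was called below 0 when any array was left out except WT natural mating replicates 1, 2 and 3. Cyp7a1 lost its call when any array was left out except WT natural mating replicates 1 and 3, WT IVF replicate 2, Atf7-/- natural mating replicate 3 and Atf7-/- IVF replicate 2 (adjusted p up to 0.0726). Cyp7a1 also lost its call with the replicate number fitted as a block. Baat lost its call without WT IVF replicates 1 or 2, Atf7-/- natural mating replicates 2 or 3 or Atf7-/- IVF replicate 3 (adjusted p up to 0.0584). Amacr lost its call when any array was left out except WT natural mating replicates 1 and 2 (adjusted p up to 0.0908) and under array weights and further quantile normalization.

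Steroid enzymes gave the lowest interaction of any gene that the rule admits. Akr1c18, a 20-alpha-hydroxysteroid dehydrogenase that inactivates progesterone, read 7.42, 8.07 and 7.39 with natural mating and 8.26, 9.57 and 8.65 with IVF on the WT arrays. Akr1c18 on the Atf7-/- arrays read 10.19, 11.01 and 11.05 with natural mating and 6.05, 8.94 and 6.50 with IVF. Its interaction was -4.79 (SE 0.89, adjusted p = 0.0105), with 1.20 (SE 0.63, adjusted p = 0.271) for IVF in WT and -3.59 (SE 0.63, adjusted p = 0.00418) for IVF in Atf7-/-, and replicate 2 of Atf7-/- IVF was closer to WT IVF than to its own group. Akr1c19, a neighbouring aldo-keto reductase, was called above 0 at 2.15 (SE 0.29, adjusted p = 0.00242). Of 18 steroid dehydrogenases and reductases, a list that Akr1c18 is not part of, 4 were called below 0 (22.2%) and 2 above (11.1%). The list was split, with 9 interactions above 0, 9 below and a median of 0.02, and its lowest value, -3.37, was not called. Those called below 0 were Hsd3b1 at -2.22 (SE 0.45, adjusted p = 0.0153), Hsd17b2 at -1.28 (SE 0.27, adjusted p = 0.0166), Hsd11b1 at -0.68 (SE 0.17, adjusted p = 0.0338) and Srd5a3 at -1.17 (SE 0.31, adjusted p = 0.0471), and Hsd3b2 at 1.24 (SE 0.18, adjusted p = 0.00359) was called above 0 with Akr1c19. In the steroid dehydrogenases and reductases list, 2 were called below 0 when any array was left out except WT natural mating replicates 1, 2 and 3, Atf7-/- natural mating replicate 2 and Atf7-/- IVF replicate 2. Hsd3b1 was dim, with a mean over all arrays of 4.98, under the level of 5.27 at which the filter on dim probe sets drops a probe set. Members of the Hsd3b and Akr1c families are close in sequence, so that their probe sets may share signal. Rdh11, a retinol dehydrogenase, had -2.92 (SE 0.47, adjusted p = 0.00533), and Aqp8, a water channel of the hepatocyte, -2.48 (SE 0.42, adjusted p = 0.00646). Hsd11b1 lost its call when any array was left out except WT natural mating replicates 1 and 3, Atf7-/- natural mating replicate 2 and Atf7-/- IVF replicate 2 (adjusted p up to 0.0795). Srd5a3 lost its call when any array was left out except WT natural mating replicates 1, 2 and 3 (adjusted p up to 0.102) and under further quantile normalization.

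Of 29 genes of glutathione transfer and recycling 6 were called below 0 (20.7%) and 1 above. In the glutathione S-transferases and glutathione cycle list, 3 were called below 0 without WT natural mating replicate 1, WT IVF replicates 2 or 3, Atf7-/- natural mating replicate 3 or Atf7-/- IVF replicate 3. The transferases Gstm6 at -1.53 (SE 0.23, adjusted p = 0.00394), Gstt3 at -1.45 (SE 0.22, adjusted p = 0.00436), Gstt1 at -1.15 (SE 0.19, adjusted p = 0.00654) and Gstm4 at -1.28 (SE 0.34, adjusted p = 0.0484) were the 4 largest, and Gss, the glutathione synthetase, was the gene above 0 at 0.66 (SE 0.14, adjusted p = 0.0196). Gstt2, Gstp1 and Oplah, which the study's text names, had interactions of 0.44 (adjusted p = 0.54), 0.26 (adjusted p = 0.694) and 0.11 (adjusted p = 0.774) and were not called. Cytochromes P450 and their regulators gave 2 calls above 0 among 43 genes, Cyp3a13 at 1.24 (SE 0.27, adjusted p = 0.021) and Cyp3a25 at 1.04 (SE 0.20, adjusted p = 0.0115). In the cytochrome P450 and xenobiotic regulators list, 1 was called above 0 without WT IVF replicate 1 or Atf7-/- natural mating replicate 2, 3 were called below 0 without Atf7-/- IVF replicate 2 and 5 were called below 0 without WT natural mating replicate 3. The drug-sensing receptors Nr1i2 and Nr1i3 had 0.03 (adjusted p = 0.962) and 1.14 (adjusted p = 0.0701), and Nfe2l2, the regulator of antioxidant genes, -0.36 (adjusted p = 0.227), none of them called. Ugdh, which makes the donor for glucuronidation, was the 1 call among 21 conjugation genes, at 0.88 (SE 0.13, adjusted p = 0.00425). Gstm4 lost its call when any array was left out except Atf7-/- IVF replicate 2 (adjusted p up to 0.11) and under further quantile normalization. Gss lost its call without WT IVF replicate 1 or Atf7-/- natural mating replicates 2 or 3 (adjusted p up to 0.0525) and under median centring. Cyp3a13 lost its call without WT IVF replicate 1 or Atf7-/- natural mating replicate 2 (adjusted p up to 0.0539). Nr1i3 was called with a replicate block, with the filter on dim probe sets and with either restriction to named probe sets.

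The liver clock turns on 2 arms of opposite phase, ARNTL with CLOCK as activators and the PER and CRY proteins as repressors. Per3 read 9.91, 9.84 and 9.53 with natural mating and 7.35, 7.56 and 7.41 with IVF on the WT arrays. Per3 on the Atf7-/- arrays read 8.05, 8.33 and 7.60 with natural mating and 7.78, 7.0 and 7.73 with IVF. WT natural mating was the highest group with no overlap, and its interaction was 1.83 (SE 0.32, adjusted p = 0.00714), with -2.32 (SE 0.22, adjusted p = 0.000551) for IVF in WT and -0.49 (SE 0.22, adjusted p = 0.192) for IVF in Atf7-/-. Per2 had 0.91 (SE 0.20, adjusted p = 0.0239) and Per1 -0.81 (SE 0.20, adjusted p = 0.0319), so the 3 period genes were called in different directions although each was lower with IVF in both genotypes. Clock read 8.37, 8.49 and 8.40 with natural mating and 9.35, 9.18 and 9.38 with IVF on the WT arrays. Clock on the Atf7-/- arrays read 9.43, 9.10 and 9.45 with natural mating and 9.22, 9.28 and 9.34 with IVF. The interaction of Clock was -0.93 (SE 0.15, adjusted p = 0.00566), with WT natural mating below every other array. Bhlhe40, a repressor of the same loop, had -1.92 (SE 0.38, adjusted p = 0.0132). Arntl at -0.57 (adjusted p = 0.211) and Cry1 at 0.26 (adjusted p = 0.64) were not called, with IVF differences of 2.23 (SE 0.18, adjusted p = 0.000535) in WT and 1.66 (SE 0.18, adjusted p = 0.00036) in Atf7-/- for Arntl. Counts were 2 above and 2 below 0 among 13 genes in phase with Dbp, and 1 below 0 among 4 in phase with Arntl. In the clock genes in phase with Dbp list, 1 was called above 0 without WT IVF replicates 1 or 3, Atf7-/- natural mating replicates 1 or 3 or Atf7-/- IVF replicate 3, 5 were called above 0 without Atf7-/- IVF replicate 2 and 1 was called below 0 when any array was left out except WT natural mating replicates 1, 2 and 3 and Atf7-/- IVF replicate 1. The hour of dissection was not given in the sources used here, and its part in these values was not tested. Per2 lost its call without WT IVF replicates 1 or 3, Atf7-/- natural mating replicates 1 or 3 or Atf7-/- IVF replicate 3 (adjusted p up to 0.0619). Per1 lost its call when any array was left out except WT natural mating replicates 1, 2 and 3 and Atf7-/- IVF replicate 1 (adjusted p up to 0.0786).

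**Figure D3:**
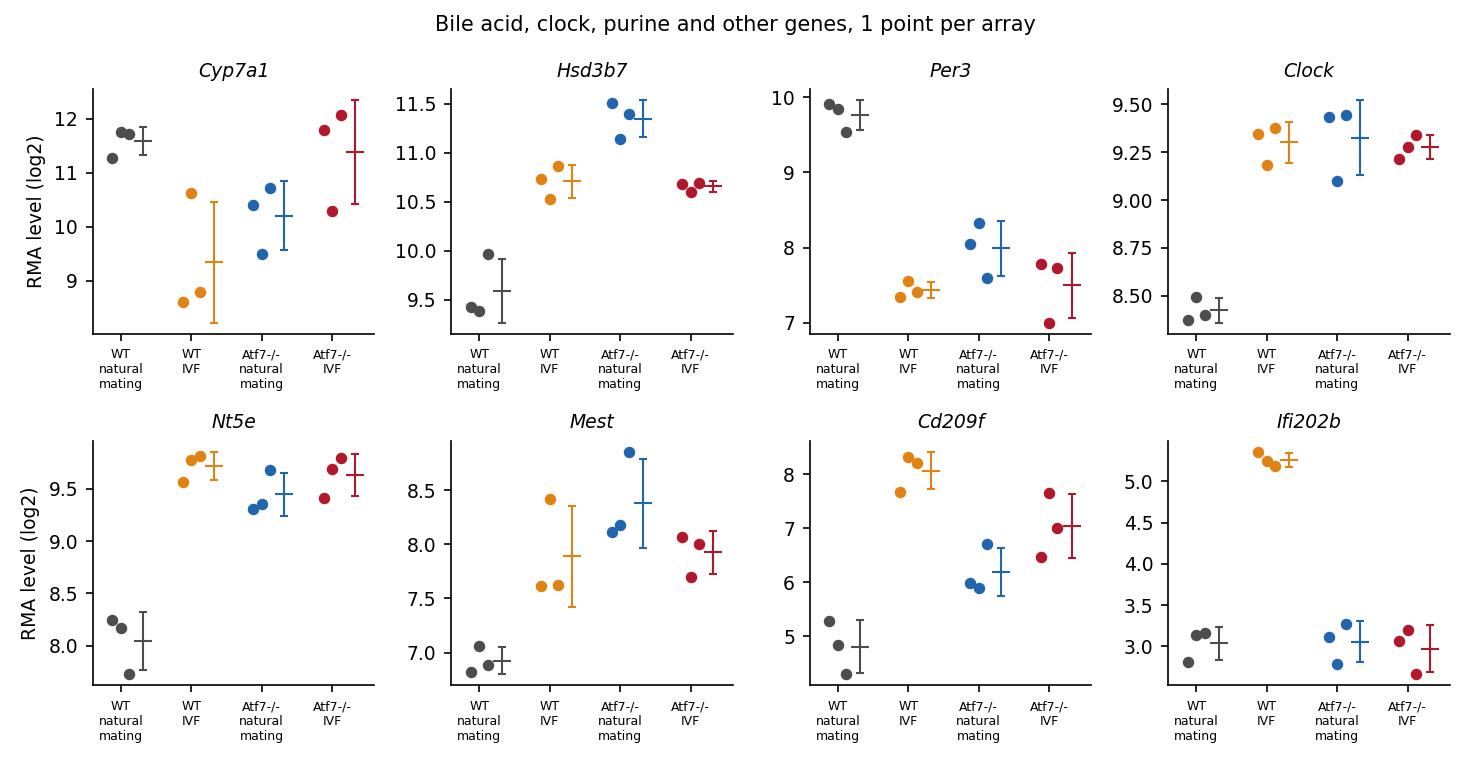
RMA levels (log2) of 8 genes on each of the 12 arrays, 3 points per group, with the mean and SD beside them. For Clock and Nt5e the WT natural mating arrays lie below all others, and for Ifi202b the WT IVF arrays lie above all others.

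Purine and pyrimidine genes were among those the study asked about. Nt5e, the surface enzyme that makes adenosine from AMP, read 8.24, 8.17 and 7.73 with natural mating and 9.57, 9.78 and 9.81 with IVF on the WT arrays. Nt5e on the Atf7-/- arrays read 9.31, 9.35 and 9.68 with natural mating and 9.41, 9.69 and 9.79 with IVF. WT natural mating was below every other array and the other 3 groups overlapped. The interaction was -1.49 (SE 0.23, adjusted p = 0.00424), made of 1.67 (SE 0.16, adjusted p = 0.000551) in WT and 0.19 (SE 0.16, adjusted p = 0.538) in Atf7-/-. Of 30 purine genes 3 were called below 0 (10%) and 1 above. The others below 0 were Paics, of the de novo route, at -0.91 (SE 0.17, adjusted p = 0.011) and Prps1, which supplies its sugar phosphate, at -0.84 (SE 0.15, adjusted p = 0.00757), while Pfas, another de novo enzyme, was above 0 at 0.76 (SE 0.16, adjusted p = 0.0185). Among 26 pyrimidine genes Uck2 at -1.57 (SE 0.22, adjusted p = 0.00293) and Cmpk2 at -0.65 (SE 0.15, adjusted p = 0.0277), both kinases of salvage, were below 0, and the uridine phosphorylase Upp2 at 1.76 (SE 0.42, adjusted p = 0.0301) and the uracil-breaking Dpyd at 0.79 (SE 0.16, adjusted p = 0.0153) above 0. In the pyrimidine and deoxynucleotide metabolism list, 1 was called above 0 when any array was left out except WT natural mating replicate 3, WT IVF replicate 2 and Atf7-/- IVF replicate 2, 1 was called below 0 without WT IVF replicate 1, Atf7-/- natural mating replicates 1 or 3 or Atf7-/- IVF replicates 1 or 3 and 5 were called below 0 without Atf7-/- IVF replicate 2. A dimmer Uck2 probe set had 0.48 (SE 0.25, adjusted p = 0.29). Pfas lost its call without Atf7-/- natural mating replicate 3 (adjusted p up to 0.0501). Cmpk2 lost its call without WT natural mating replicate 1, WT IVF replicate 1, Atf7-/- natural mating replicates 1 or 3 or Atf7-/- IVF replicates 1 or 3 (adjusted p up to 0.0695). Upp2 lost its call when any array was left out except WT natural mating replicate 3, WT IVF replicate 2 and Atf7-/- IVF replicate 2 (adjusted p up to 0.0701).

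Of 27 genes of glucose and glycogen metabolism 5 were called below 0 (18.5%) and 0 above. They were Pklr, the liver pyruvate kinase, at -2.00 (SE 0.47, adjusted p = 0.0277), Pgd, of the pentose phosphate pathway, at -1.94 (SE 0.32, adjusted p = 0.00571), the phosphoglycerate mutase Pgam1 at -0.96 (SE 0.17, adjusted p = 0.00875), the gluconeogenic Fbp1 at -0.70 (SE 0.12, adjusted p = 0.0071) and the transcription factor Foxo1 at -0.65 (SE 0.15, adjusted p = 0.0251). In the glucose and glycogen metabolism list, 2 were called above 0 without WT natural mating replicate 3 and 3 were called below 0 without WT natural mating replicate 1, WT IVF replicates 1, 2 or 3, Atf7-/- natural mating replicate 3 or Atf7-/- IVF replicate 3. Levels of Pgd were 8.50 ± 0.26 on the WT natural mating arrays, 8.77 ± 0.10 on the WT IVF arrays, 10.17 ± 0.16 on the Atf7-/- natural mating arrays and 8.50 ± 0.53 on the Atf7-/- IVF arrays (SD, n = 3 for each group), with Atf7-/- natural mating highest. Of 22 genes of the urea cycle and amino acid breakdown 3 were called above 0 (13.6%) and 0 below. The 3 were the alanine aminotransferase Gpt at 1.37 (SE 0.28, adjusted p = 0.0166) and the urea cycle genes Asl at 1.14 (SE 0.28, adjusted p = 0.0348) and Arg1 at 0.68 (SE 0.12, adjusted p = 0.00785). Of the 22 genes 14 had an interaction above 0 and 8 below, with a median of 0.22. The lowest value, -2.04, was not called. With median centring 3 were called above 0 and 1 below. Of 21 genes of methionine, one-carbon and serine metabolism 2 were called above 0 (9.52%) and 1 below (4.76%), with a median of 0.08. The highest value of that list, 2.29, was not called. In the methionine, one-carbon and serine metabolism list, 1 was called above 0 when any array was left out except WT natural mating replicate 3, WT IVF replicates 2 and 3, Atf7-/- natural mating replicate 2 and Atf7-/- IVF replicate 2 and 5 were called above 0 without Atf7-/- IVF replicate 2. Cth, which makes cysteine, had 1.32 (SE 0.24, adjusted p = 0.00898) and Mthfd1l, of the mitochondrial folate cycle, 0.92 (SE 0.21, adjusted p = 0.0278), while Shmt2, a serine hydroxymethyltransferase, had -1.03 (SE 0.19, adjusted p = 0.0107). Pklr lost its call when any array was left out except WT natural mating replicate 3 and Atf7-/- IVF replicate 2 (adjusted p up to 0.0662). Foxo1 lost its call when any array was left out except WT natural mating replicate 2, Atf7-/- natural mating replicates 1 and 2 and Atf7-/- IVF replicate 1 (adjusted p up to 0.0636) and under further quantile normalization. Asl lost its call when any array was left out except WT IVF replicate 2 and Atf7-/- IVF replicate 2 (adjusted p up to 0.0834). Mthfd1l lost its call when any array was left out except WT natural mating replicate 3, WT IVF replicates 2 and 3, Atf7-/- natural mating replicate 2 and Atf7-/- IVF replicate 2 (adjusted p up to 0.0682).

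Many small noncoding RNAs were called above 0. The naming rule left out small nucleolar RNAs, so this group was chosen after its values were seen. Such RNAs guide the modification and cutting of ribosomal and spliceosomal RNA and stay in the nucleus. Of 54 measured small nucleolar and Cajal body RNAs 34 were called above 0 (63.0%, background 1.47%) and 0 below, with a median of 1.40. Their mean RMA level was 8.43, 8.64 and 8.60 on the WT natural mating arrays, 7.88, 7.89 and 7.90 on the WT IVF arrays, 7.04, 7.23 and 6.98 on the Atf7-/- natural mating arrays, and 7.88, 7.91 and 7.90 on the Atf7-/- IVF arrays. The 6 IVF arrays lay between 7.88 and 7.91, all WT natural mating arrays above them and all Atf7-/- natural mating arrays below them. Leaving out each array in turn left 27 to 34 called.

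Snord118, which is needed to cut ribosomal RNA precursors, read 11.14, 12.48 and 12.54 with natural mating and 11.66, 11.50 and 11.50 with IVF on the WT arrays. Snord118 on the Atf7-/- arrays read 7.32, 8.38 and 8.11 with natural mating and 11.93, 11.75 and 11.68 with IVF. Its interaction was 4.35 (SE 0.49, adjusted p = 0.000975), with Atf7-/- natural mating lowest and no overlap between it and the rest. Snora73b had 3.90 (SE 0.36, adjusted p = 0.000376), and the near-identical Snora73a, whose probe set may read the same RNA, 3.91 (SE 0.34, adjusted p = 0.000282). Snora44 had 3.88 (SE 0.36, adjusted p = 0.000374). Other structural RNAs were called as well. Vaultrc5, a vault RNA, read 10.61, 11.34 and 11.25 with natural mating and 9.15, 9.03 and 9.15 with IVF on the WT arrays. Vaultrc5 on the Atf7-/- arrays read 7.42, 7.97 and 7.82 with natural mating and 9.23, 8.83 and 9.08 with IVF. The interaction of Vaultrc5 was 3.27 (SE 0.28, adjusted p = 0.000245). Malat1, a long RNA kept in nuclear speckles, read 12.01, 12.15 and 12.03 with natural mating and 11.27, 11.07 and 11.37 with IVF on the WT arrays. Malat1 on the Atf7-/- arrays read 10.26, 10.44 and 10.34 with natural mating and 11.64, 11.08 and 11.64 with IVF. The interaction of Malat1 was 1.93 (SE 0.21, adjusted p = 0.000774). Rmrp, the RNA of the RNase MRP, had 1.60 (SE 0.22, adjusted p = 0.00269), Scarna13 1.70 (SE 0.37, adjusted p = 0.0212) and Gas5, a host transcript of small nucleolar RNAs, 1.21 (SE 0.16, adjusted p = 0.00216), with its other 3 probe sets between 0.35 and 1.55. In a list of 13 such RNAs, also added after the values were seen, 9 were called above 0 and 0 below. How much of each RNA the extraction and cDNA synthesis kept on each array was not measured, and its part in these values was not tested. Scarna13 lost its call without WT IVF replicate 1 or Atf7-/- natural mating replicates 1 or 3 (adjusted p up to 0.053).

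**Figure D4:**
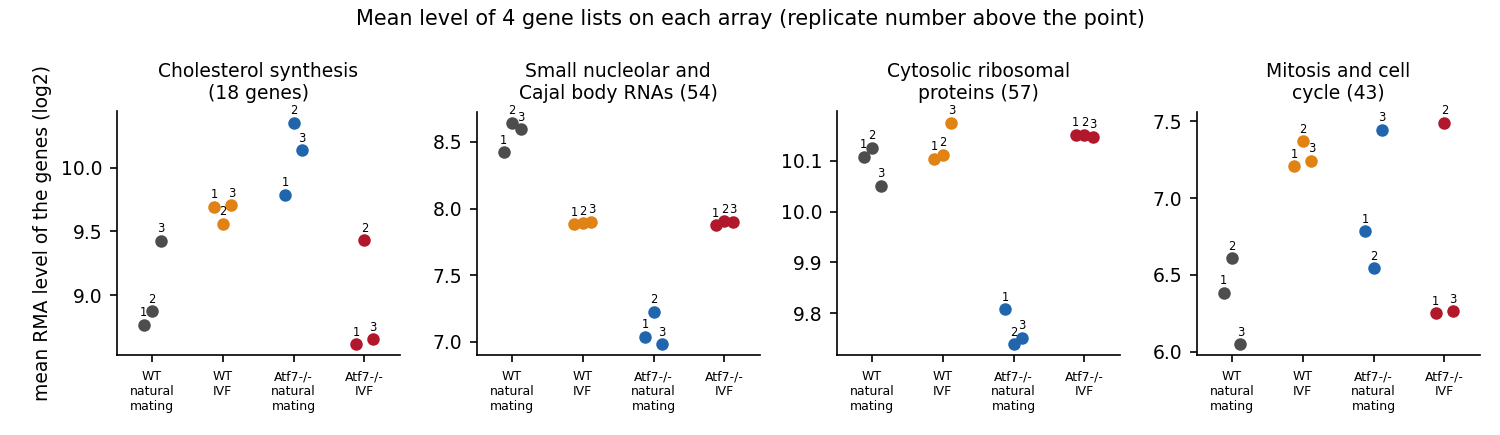
Mean RMA level (log2) of 4 gene lists on each array, with the replicate number above each point. The small nucleolar RNAs are nearly level over the 6 IVF arrays, highest in WT natural mating and lowest in Atf7-/- natural mating, while the cell cycle genes are high on Atf7-/- IVF replicate 2 and Atf7-/- natural mating replicate 3.

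Cytosolic ribosomal protein genes had 14 of 57 called above 0 (24.6%) and 0 below, and splicing factors 10 of 56 (17.9%) and 0 below. With median centring these were 13 above and 2 below, and 7 above and 1 below. In the splicing factors list, 3 were called below 0 without Atf7-/- IVF replicate 2. The mean ribosomal protein level was 10.11, 10.13 and 10.05 on the WT natural mating arrays, 10.10, 10.11 and 10.18 on the WT IVF arrays, 9.81, 9.74 and 9.75 on the Atf7-/- natural mating arrays, and 10.15, 10.15 and 10.15 on the Atf7-/- IVF arrays, lowest on the 3 Atf7-/- natural mating arrays and without overlap with the rest. Rpl24 had 1.47 (SE 0.14, adjusted p = 0.000423), Rps3a1 1.37 (SE 0.15, adjusted p = 0.000848), Rpl23a 1.32 (SE 0.18, adjusted p = 0.00234) and Rpl5 1.31 (SE 0.31, adjusted p = 0.031). Ribosomal protein genes have many processed copies, and the other 9 Rpl23a probe sets ran from -0.01 to 0.91, the other 3 of Rpl5 from -0.41 to 1.41 and the other 2 of Rpl24 from 0.11 to 0.97, so which copy a probe set reads is uncertain. The splicing factor Srsf5 read 11.04, 10.78 and 10.05 with natural mating and 10.35, 10.52 and 10.57 with IVF on the WT arrays. Srsf5 on the Atf7-/- arrays read 8.80, 8.81 and 8.81 with natural mating and 10.57, 10.30 and 10.65 with IVF. The interaction of Srsf5 was 1.84 (SE 0.29, adjusted p = 0.00477), and a second Srsf5 probe set gave 1.44 (SE 0.28, adjusted p = 0.0122). Hnrnpc, an RNA-binding protein of nascent transcripts, had 1.05 (SE 0.19, adjusted p = 0.00993), Snrnp70, of the U1 particle, 0.90 (SE 0.12, adjusted p = 0.00224) and Sf3b2, of the U2 particle, 0.81 (SE 0.17, adjusted p = 0.0179). Rpl5 lost its call when any array was left out except WT natural mating replicate 3, WT IVF replicate 3, Atf7-/- natural mating replicate 1 and Atf7-/- IVF replicate 1 (adjusted p up to 0.0775).

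Subunits of oxidative phosphorylation were called in both directions, 14 of 80 above 0 (17.5%) and 6 below (7.5%). Atp5l, of the ATP synthase, had 1.75 (SE 0.27, adjusted p = 0.00425), Atp5k, of the same complex, 1.39 (SE 0.38, adjusted p = 0.0493) and Ndufa5, of complex I, 1.07 (SE 0.12, adjusted p = 0.00114), while Ndufs8, of complex I too, had -1.42 (SE 0.22, adjusted p = 0.00432). Of the other 4 Atp5l probe sets 3 were called above 0 and the fourth had 0.06 (SE 0.20, adjusted p = 0.907). In the oxidative phosphorylation subunits list, 7 were called above 0 without Atf7-/- natural mating replicate 1, 8 were called above 0 without WT IVF replicates 1 or 2 or Atf7-/- natural mating replicate 3 and 9 were called above 0 without WT natural mating replicate 2 or Atf7-/- IVF replicates 1 or 3. Mitochondrial ribosomal proteins split 5 above and 6 below among 77 genes, with Mrpl34 at -1.23 (SE 0.15, adjusted p = 0.00146) and Mrpl10 at -1.06 (SE 0.15, adjusted p = 0.00261) below 0, and Mrps18c at 1.11 (SE 0.15, adjusted p = 0.00256) and Mrpl24 at 0.86 (SE 0.12, adjusted p = 0.00293) above 0. With median centring that split was 4 above and 11 below. In the mitochondrial ribosomal proteins list, 3 were called below 0 without WT IVF replicate 3 or Atf7-/- IVF replicates 1 or 3. Proteasome subunits had 4 of 39 called below 0 (10.3%) and 1 above (2.56%), while 23 had an interaction above 0 and 16 below, with a median of 0.10. Those called below 0 included Psmb5 at -1.06 (SE 0.25, adjusted p = 0.0303) and Psmb3 at -0.86 (SE 0.16, adjusted p = 0.0109), with -1.24 (SE 0.23, adjusted p = 0.0106) at a second Psmb3 probe set. Psmc5, the call above 0, lost it in 7 of the fits that left out an array and under median centring. In the proteasome subunits list, 4 were called above 0 without WT natural mating replicate 1, 1 was called below 0 without Atf7-/- natural mating replicate 3 or Atf7-/- IVF replicate 3 and 2 were called below 0 without WT natural mating replicate 1, WT IVF replicates 1, 2 or 3, Atf7-/- natural mating replicate 2 or Atf7-/- IVF replicate 1. RNA polymerase subunits had 4 of 29 below 0, among them Polr2f at -1.30 (SE 0.24, adjusted p = 0.0105) and Znrd1 at -1.18 (SE 0.16, adjusted p = 0.00249). In the RNA polymerase subunits list, 2 were called below 0 without WT IVF replicate 3, Atf7-/- natural mating replicates 1 or 3 or Atf7-/- IVF replicate 3. Atp5k lost its call when any array was left out except WT IVF replicate 1 and Atf7-/- IVF replicate 3 (adjusted p up to 0.105) and under array weights. Psmb5 lost its call when any array was left out except WT natural mating replicates 2 and 3, Atf7-/- natural mating replicate 1 and Atf7-/- IVF replicate 2 (adjusted p up to 0.0704).

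**Figure D5:**
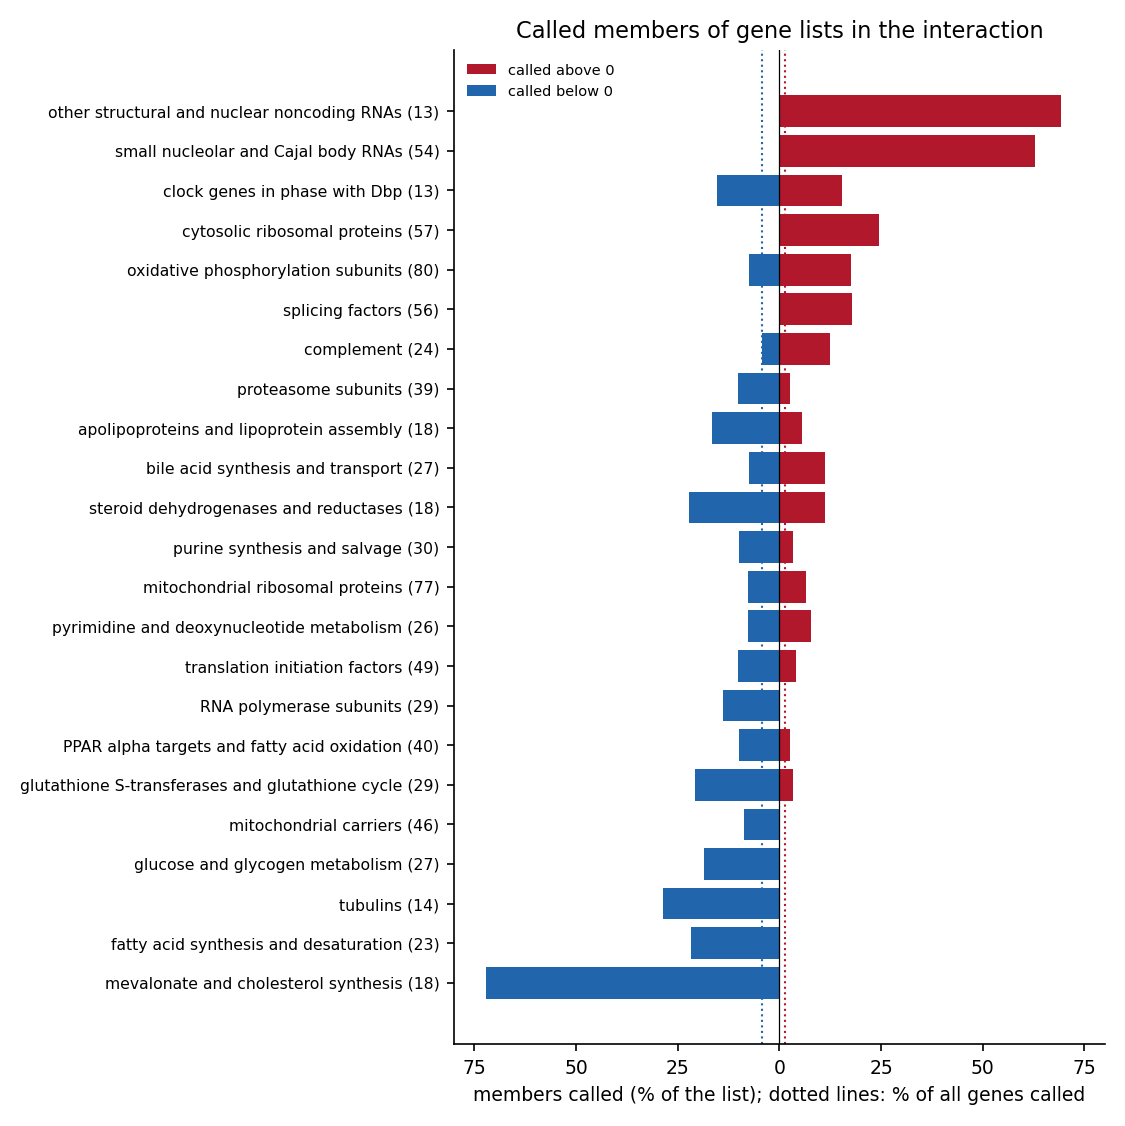
Share of each gene list called above 0 (red, to the right) and below 0 (blue, to the left) in the interaction, for the 23 lists with at least 4 calls, with the number of measured genes in brackets. Dotted lines mark the shares over all genes, 1.47% above and 4.23% below 0; the 2 lists of noncoding RNAs were chosen after their values were seen.

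Cell cycle genes had a low median but few calls. Of 43 genes of mitosis 41 had an interaction below 0, with a median of -1.22, and 2 were called, Ube2c at -1.61 (SE 0.36, adjusted p = 0.0237) and Cenpa at -1.27 (SE 0.33, adjusted p = 0.0427). Their mean RMA level was 6.38, 6.61 and 6.05 on the WT natural mating arrays, 7.21, 7.37 and 7.24 on the WT IVF arrays, 6.79, 6.54 and 7.45 on the Atf7-/- natural mating arrays, and 6.25, 7.49 and 6.26 on the Atf7-/- IVF arrays. Replicate 2 of Atf7-/- IVF was the highest of the 12 arrays and its 2 group mates among the lowest. In the mitosis and cell cycle list, 0 were called below 0 without WT IVF replicates 2 or 3 or Atf7-/- IVF replicates 1 or 3, 1 was called below 0 without WT natural mating replicates 1, 2 or 3, WT IVF replicate 1 or Atf7-/- natural mating replicates 1 or 3, 4 were called below 0 without Atf7-/- natural mating replicate 2 and 28 were called below 0 without Atf7-/- IVF replicate 2. Mki67, a marker of dividing cells named after its values were seen, read 7.36, 7.48 and 6.77 with natural mating and 8.64, 8.85 and 8.68 with IVF on the WT arrays. Mki67 on the Atf7-/- arrays read 7.90, 7.61 and 8.91 with natural mating and 7.0, 9.05 and 7.29 with IVF. The interaction of Mki67 was -1.88 (SE 0.68, adjusted p = 0.127), and Foxm1, which drives mitotic genes, had -1.03 (SE 0.42, adjusted p = 0.172). Of the fits that left out an array, only the one without Atf7-/- IVF replicate 2 called either. Of 35 DNA replication genes 3 were called below 0, Pold2 at -1.09 (SE 0.21, adjusted p = 0.0135), Rfc5 at -0.85 (SE 0.20, adjusted p = 0.0282) and Cdt1 at -0.79 (SE 0.18, adjusted p = 0.0244). In the DNA replication list, 1 was called below 0 without WT natural mating replicate 1, Atf7-/- natural mating replicates 1 or 2 or Atf7-/- IVF replicate 3 and 11 were called below 0 without Atf7-/- IVF replicate 2. Of 14 tubulin genes 4 were called below 0, Tubb6 at -1.50 (SE 0.28, adjusted p = 0.00988), Tubb5 at -1.32 (SE 0.28, adjusted p = 0.0175), Tubg1 at -1.08 (SE 0.17, adjusted p = 0.00477) and the alpha-tubulin gene Tuba1a at -0.78 (SE 0.18, adjusted p = 0.027). Ube2c lost its call without WT IVF replicates 2 or 3 or Atf7-/- IVF replicates 1 or 3 (adjusted p up to 0.0612). Cenpa lost its call when any array was left out except Atf7-/- natural mating replicate 2 and Atf7-/- IVF replicate 2 (adjusted p up to 0.1). Rfc5 lost its call without WT natural mating replicate 1, WT IVF replicate 3, Atf7-/- natural mating replicates 1, 2 or 3 or Atf7-/- IVF replicate 3 (adjusted p up to 0.0699). Cdt1 lost its call without WT natural mating replicate 1, WT IVF replicate 2, Atf7-/- natural mating replicates 1 or 2 or Atf7-/- IVF replicates 1 or 3 (adjusted p up to 0.0631). Tuba1a lost its call without WT natural mating replicates 1 or 2, WT IVF replicate 2, Atf7-/- natural mating replicates 2 or 3 or Atf7-/- IVF replicate 3 (adjusted p up to 0.0691).

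Imprinted genes, which are read from 1 parental copy, had 3 of 22 called below 0 and 0 above. Mest, of the paternal copy and named in the study's text, read 6.83, 7.07 and 6.88 with natural mating and 7.62, 8.42 and 7.62 with IVF on the WT arrays. Mest on the Atf7-/- arrays read 8.11, 8.18 and 8.85 with natural mating and 8.07, 7.70 and 8.0 with IVF. WT natural mating lay below every other array, and the interaction was -1.42 (SE 0.34, adjusted p = 0.0307). Peg10, also of the paternal copy, had levels of 6.15 ± 0.31 on the WT natural mating arrays, 6.25 ± 0.19 on the WT IVF arrays, 7.65 ± 0.23 on the Atf7-/- natural mating arrays and 6.53 ± 0.06 on the Atf7-/- IVF arrays (SD, n = 3 for each group) and an interaction of -1.22 (SE 0.23, adjusted p = 0.0116). Phlda2, of the maternal copy, had levels of 6.25 ± 0.03 on the WT natural mating arrays, 6.36 ± 0.27 on the WT IVF arrays, 7.39 ± 0.30 on the Atf7-/- natural mating arrays and 6.24 ± 0.25 on the Atf7-/- IVF arrays and an interaction of -1.27 (SE 0.25, adjusted p = 0.0139). For both of these every Atf7-/- natural mating array was above every other array. Igf2 had 0.09 (SE 0.20, adjusted p = 0.852) and was not called, with an IVF difference of 0.68 (SE 0.14, adjusted p = 0.0109) in Atf7-/-. Mest lost its call without WT natural mating replicate 1, Atf7-/- natural mating replicate 3 or Atf7-/- IVF replicates 2 or 3 (adjusted p up to 0.0625).

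Chromatin regulators and factors related to ATF7 gave 0 calls. None of 21 genes of H3K9 methylation, 21 ATF/CREB and AP-1 factors or 13 DNA methylation enzymes was called by limma, and 8, 2 and 1 of them had an unadjusted p under 0.05. Over all 34760 probe sets 7681 had an unadjusted limma p under 0.05. With backgrounds of 1.47% above and 4.23% below 0, lists of this size would hold few calls. Setdb1 and Ehmt2, the H3K9 methyltransferases linked to ATF7, had interactions of 0.30 (SE 0.15, adjusted p = 0.288) for Setdb1 and 0.17 (SE 0.14, adjusted p = 0.531) for Ehmt2. Atf4 had 0.26 (adjusted p = 0.356) and Xbp1, of the unfolded protein response, -0.68 (SE 0.21, adjusted p = 0.0727), neither called, although Xbp1 was called with median centring, with array weights, with the filter on dim probe sets, with either restriction to named probe sets and without WT natural mating replicate 3. Alas1, which sets the pace of heme synthesis, had 0.91 (adjusted p = 0.236) and was not called, with IVF differences of -2.21 (SE 0.30, adjusted p = 0.00261) in WT and -1.30 (SE 0.30, adjusted p = 0.0158) in Atf7-/-. Alad, the next enzyme, was called at -0.90 (SE 0.18, adjusted p = 0.0139). Of the other genes that the study's text names, Mbl1 at -0.14 (adjusted p = 0.816), F13b at 0.08 (adjusted p = 0.852), Fga at -0.16 (adjusted p = 0.528), with -0.52 (adjusted p = 0.282) at its other probe set, and Fads2 at -0.07 (adjusted p = 0.856) were not called.

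Immune genes and markers of non-hepatocyte cells were called in small numbers. Ifi202b, an interferon-inducible gene, read 2.81, 3.14 and 3.16 with natural mating and 5.36, 5.24 and 5.18 with IVF on the WT arrays. Ifi202b on the Atf7-/- arrays read 3.11, 2.79 and 3.28 with natural mating and 3.07, 3.20 and 2.66 with IVF. It was highest on the WT IVF arrays, with an interaction of -2.31 (SE 0.23, adjusted p = 0.000493) and a difference between genotypes within IVF of -2.29 (SE 0.16, adjusted p = 0.000752). Its mean over all arrays, 3.58, is under the level of 5.27 below which the filter on dim probe sets drops a probe set, so the size of these differences is uncertain. Cd209f, a C-type lectin, read 5.28, 4.84 and 4.30 with natural mating and 7.67, 8.32 and 8.21 with IVF on the WT arrays. Cd209f on the Atf7-/- arrays read 5.99, 5.89 and 6.71 with natural mating and 6.46, 7.66 and 7.0 with IVF. The interaction of Cd209f was -2.41 (SE 0.48, adjusted p = 0.0142), with WT natural mating lowest and WT IVF highest and no overlap. Of 10 Kupffer cell and macrophage markers 2 were called above 0 (20%, background 1.47%) and 1 below (10%, background 4.23%). Those called above 0 were Cd5l at 1.18 (SE 0.22, adjusted p = 0.01) and C1qa at 0.86 (SE 0.22, adjusted p = 0.0401), and Vsig4 at -0.67 (SE 0.17, adjusted p = 0.0423) was called below 0. Of the 10 genes 9 had an interaction above 0, with a median of 0.32. In the Kupffer cell and macrophage markers list, 1 was called above 0 when any array was left out except WT natural mating replicate 1 and 4 were called above 0 without WT natural mating replicate 1. The mean level of the list was 9.04, 9.44 and 9.74 on the WT natural mating arrays, 9.11, 9.06 and 9.16 on the WT IVF arrays, 8.99, 8.81 and 8.99 on the Atf7-/- natural mating arrays, and 8.98, 9.19 and 8.96 on the Atf7-/- IVF arrays. Of 14 antigen presentation genes 0 were called by limma (1 at an unadjusted p under 0.05), with a median of 0.47 and, for Cd74, levels of 9.53 ± 1.38 on the WT natural mating arrays, 8.24 ± 0.61 on the WT IVF arrays, 8.53 ± 0.31 on the Atf7-/- natural mating arrays and 8.04 ± 0.20 on the Atf7-/- IVF arrays (SD, n = 3 for each group). The marker lists of sinusoidal endothelial and stellate cells had 1 call each, Clec4g at -1.10 (SE 0.24, adjusted p = 0.019) and Pdgfrb at -0.89 (SE 0.18, adjusted p = 0.0147). A dimmer Clec4g probe set had 0.01 (SE 0.19, adjusted p = 0.989). In the hepatocyte list 1 gene was called, Hnf4a at -0.74 (SE 0.17, adjusted p = 0.026). Markers of cholangiocytes, T and NK cells, B cells, neutrophils and erythroid cells had 0 calls by limma among 40 genes, with 1, 0, 0, 1 and 1 at an unadjusted p under 0.05. The number over all 34760 probe sets was 7681. C1qa lost its call when any array was left out except WT natural mating replicate 1 (adjusted p up to 0.0927) and under median centring. Vsig4 lost its call when any array was left out except WT natural mating replicate 2, Atf7-/- natural mating replicate 2 and Atf7-/- IVF replicate 2 (adjusted p up to 0.101) and under further quantile normalization. Clec4g lost its call without Atf7-/- IVF replicate 3 (adjusted p up to 0.0518). Hnf4a lost its call when any array was left out except WT natural mating replicates 1 and 2, WT IVF replicate 2, Atf7-/- natural mating replicate 2 and Atf7-/- IVF replicate 2 (adjusted p up to 0.0635).

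The remaining genes of the 12 largest each way were in none of the lists. Below 0 was A1bg, which encodes the plasma protein alpha-1-B glycoprotein, at -2.48 (SE 0.59, adjusted p = 0.0305), with levels of 5.89 ± 0.33 on the WT natural mating arrays, 7.60 ± 1.09 on the WT IVF arrays, 6.97 ± 0.27 on the Atf7-/- natural mating arrays and 6.20 ± 0.20 on the Atf7-/- IVF arrays. Above 0 were the oligopeptide transporter Slc15a2 at 2.22 (SE 0.48, adjusted p = 0.0206), the lectin-like Clec2d at 1.86 (SE 0.38, adjusted p = 0.0156) and Depp1, a fasting-responsive gene, at 1.83 (SE 0.46, adjusted p = 0.0379). A1bg lost its call when any array was left out except WT natural mating replicate 3, WT IVF replicate 2, Atf7-/- natural mating replicate 2 and Atf7-/- IVF replicate 2 (adjusted p up to 0.0747). Slc15a2 lost its call without WT IVF replicate 3, Atf7-/- natural mating replicates 1 or 2 or Atf7-/- IVF replicate 3 (adjusted p up to 0.053). Depp1 lost its call when any array was left out except WT natural mating replicates 2 and 3, Atf7-/- natural mating replicate 3 and Atf7-/- IVF replicate 2 (adjusted p up to 0.0907).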

How the data were processed

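Livers of 12 male mice were profiled from total RNA, each on 1 Affymetrix Mouse Gene 1.0 ST array. The authors deposited log2 expression values made by RMA with the affy package, versions not given in the sources used here. RMA equalises the arrays' distributions, so a shift shared by most RNAs would not show. The deposited values were fitted in limma 3.58.1 (R 4.3.3) with 4 group means and no covariate. The interaction was tested as a contrast, with moderated statistics and Benjamini-Hochberg adjustment over 34760 probe sets. The platform annotation gave 1 symbol to 21640 of them, several to 1321 and none to 11799. A gene was represented by its probe set with the highest mean. Named genes were the 12 largest called each way, leaving out predicted genes and families such as small nucleolar RNAs, up to 4 called members of each of 55 gene lists, all members of counts of 5 or fewer, fixed regulators and genes the study names; 3 of these had no value. The members and lists were chosen with earlier results of these data known. Alternatives were a filter on dim probe sets, a replicate block, trend and robust variances, array weights, quantile normalization, median centring, symbol restrictions, other thresholds and leaving out each array; 2 lists of noncoding RNAs and counts over genes were added after seeing the data. The code was tested on simulated data. Figures were drawn with matplotlib 3.10.9.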

Additional observations from a re-analysis of the deposited data

Results flagged for a closer look

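The difference between the IVF effects of the 2 genotypes was itself the test, so every called interaction stands here: 945 probe sets above 0 and 1203 below 0. Among genes that the naming rule admits, the 12 lowest interactions (log2) were Akr1c18 at -4.79, Sqle at -3.83, Fabp5 at -3.49, Nsdhl at -2.95, Rdh11 at -2.92, Idi1 at -2.78, Cyp51 at -2.68, A1bg at -2.48, Aqp8 at -2.48, Cd209f at -2.41, Msmo1 at -2.41 and Ifi202b at -2.31. The 12 highest were Cyp7a1 at 3.43, Vaultrc5 at 3.27, Slc15a2 at 2.22, Akr1c19 at 2.15, Malat1 at 1.93, Clec2d at 1.86, Srsf5 at 1.84, Per3 at 1.83, Depp1 at 1.83, Upp2 at 1.76, Atp5l at 1.75 and Scarna13 at 1.70. Each is a difference of 2 differences over 3 arrays per group.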

How the results depend on the processing

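The interaction was called in 2148 probe sets, 945 above and 1203 below 0. A stricter adjusted p of at most 0.01 left 750 (311 above, 439 below) and an absolute difference of at least 1 left 986 (504 and 482). Only probe sets with 1 symbol gave 467 above 0, and 1 probe set per symbol gave 1410, with 377 above; both settings test fewer probe sets. Leaving out each array in turn gave 1443 to 2482 calls, 624 to 1141 above and 819 to 1466 below 0. In all of these 12 fits 495 probe sets stayed called above 0 and 672 below. Median centring gave 711 and 1628, with 1914 of the 2148 probe sets called in both. It moved the median interaction over all probe sets from 0.03 to -0.05. Trend and robust variances, array weights, further quantile normalization, the filter on dim probe sets and dropping the minimum difference kept each count within 1.5 times.

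The sample titles do not say whether replicate numbers pair mice, and the study used paired t-tests for its qRT-PCR. Deviations from group means of arrays with the same number correlated at -0.12 to 0.24 and of other numbers at -0.20 to 0.19. These ranges overlap, and with so few arrays they cannot exclude a pairing. With the replicate number as a block 2020 probe sets were called (896 above, 1124 below), 1848 of them among the 2148. The block took the call from Cyp7a1, Pmvk, Elovl1, Sar1b, Angptl4, Pex11a, Plin2, Amacr, Hsd11b1 and Per1 among genes named above. Calls of Cmpk2, Asl, Rpl5, Cenpa, C1qa and Vsig4 were lost with it too, as were those of C2, Oas2 and Slc25a11, named below. Scap and Nr1i3 gained a call with it. Of 162 called genes chosen by the naming rule or after the values were seen, 93 were called in all 12 fits that left out an array. Not all of the 162 are described here. Over the 3918 alternative values of single genes 3332 kept the call or its absence, 546 lost the call and 40 gained it. A change of sign was counted as a reversal only where the gene was called in either fit, and 0 were counted. Uncalled genes such as Igf2 and Nr1i2 did change sign between fits. Precision is limited by the 3 mice per group, and p-values measure only the spread between these mice.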

Other observations

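The lists not described above are given here, beside backgrounds of 1.47% above and 4.23% below 0. Of 49 translation initiation factors 5 were called below 0 (10.2%) and 2 above (4.08%). Among them were Eif4a2, an RNA helicase, at 0.96 (SE 0.17, adjusted p = 0.00815) and Eif5a, which helps ribosomes through stalls, at -0.77 (SE 0.18, adjusted p = 0.0288). A second Eif5a probe set of mean level 9.36 had -0.14 (SE 0.18, adjusted p = 0.733). With median centring that list had 8 below 0 and 1 above. In the translation initiation factors list, 1 was called above 0 when any array was left out except WT natural mating replicates 1 and 2, 1 was called below 0 without Atf7-/- natural mating replicate 3, 2 were called below 0 without Atf7-/- natural mating replicate 1 or Atf7-/- IVF replicate 3 and 3 were called below 0 without WT natural mating replicates 1 or 2 or WT IVF replicates 1, 2 or 3. Of 46 mitochondrial carriers 4 were called below 0 (8.70%) and 0 above, among them Slc25a11, the oxoglutarate carrier, at -0.66 (SE 0.16, adjusted p = 0.0336). In the mitochondrial carriers list, 1 was called below 0 without WT IVF replicate 3, Atf7-/- natural mating replicates 2 or 3 or Atf7-/- IVF replicates 1 or 3 and 2 were called below 0 without WT natural mating replicates 1 or 2, WT IVF replicates 1 or 2 or Atf7-/- natural mating replicate 1. Of 24 complement genes 3 were called above 0 (12.5%) and 1 below (4.17%), with C2, a protease of the classical route, at 0.78 (SE 0.21, adjusted p = 0.0449) and the complement inhibitor Cd59a at -0.86 (SE 0.18, adjusted p = 0.0159). With median centring 1 was above 0. In the complement list, 0 were called above 0 without WT IVF replicates 1 or 2, Atf7-/- natural mating replicates 1 or 3 or Atf7-/- IVF replicate 3 and 1 was called above 0 without WT natural mating replicates 2 or 3, WT IVF replicate 3, Atf7-/- natural mating replicate 2 or Atf7-/- IVF replicate 1. Of 30 interferon-stimulated genes 1 was called above 0 (3.33%) and 2 below (6.67%), with Oas2 at 0.89 (SE 0.23, adjusted p = 0.0376) and Usp18 at -0.91 (SE 0.20, adjusted p = 0.0194) beside Ifi202b. In the interferon-stimulated genes list, 3 were called above 0 without WT natural mating replicate 1 and 1 was called below 0 without Atf7-/- IVF replicate 3. Eif5a lost its call without WT natural mating replicates 1 or 2, WT IVF replicate 3, Atf7-/- natural mating replicates 1 or 3 or Atf7-/- IVF replicate 1 (adjusted p up to 0.0707). Slc25a11 lost its call when any array was left out except WT natural mating replicate 1, WT IVF replicate 1 and Atf7-/- IVF replicate 2 (adjusted p up to 0.0794) and under array weights and further quantile normalization. C2 lost its call when any array was left out except Atf7-/- IVF replicate 2 (adjusted p up to 0.106) and under median centring. Oas2 lost its call when any array was left out except WT natural mating replicate 1 and Atf7-/- natural mating replicate 1 (adjusted p up to 0.0833). Usp18 lost its call without Atf7-/- IVF replicate 3 (adjusted p up to 0.0521).

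The ATF4 and unfolded protein response list gave 1 call among 28 genes, Sesn2 at -0.69 (SE 0.16, adjusted p = 0.0256), heat shock chaperones 1 of 20, Cdc37 at 0.61 (SE 0.16, adjusted p = 0.04), and the growth hormone axis 1 of 16, Stat5b at -0.77 (SE 0.16, adjusted p = 0.0158). In the ATF4 and unfolded protein response list, 4 were called below 0 without WT natural mating replicate 3. In the growth hormone and IGF1 axis list, 3 were called above 0 without WT natural mating replicate 3 and 3 were called below 0 without WT IVF replicate 2. Coagulation genes gave 1 of 29, Tfpi at -0.71 (SE 0.19, adjusted p = 0.0441), integrins and laminins 1 of 41, Itgav at -0.69 (SE 0.14, adjusted p = 0.0138), and branched-chain amino acid breakdown 1 of 21, Acat1 at -0.69 (SE 0.15, adjusted p = 0.0183). Of 15 iron genes, 23 acute-phase genes, 18 aminoacyl-tRNA synthetases and 44 collagen chains 0 were called by limma, with 2, 4, 4 and 3 at an unadjusted p under 0.05. The number over all 34760 probe sets was 7681. Sesn2 lost its call when any array was left out except WT natural mating replicates 1 and 3, WT IVF replicate 2, Atf7-/- natural mating replicate 2 and Atf7-/- IVF replicate 2 (adjusted p up to 0.0662). Cdc37 lost its call when any array was left out except WT natural mating replicate 1, Atf7-/- natural mating replicate 2 and Atf7-/- IVF replicate 2 (adjusted p up to 0.0946) and under median centring. Tfpi lost its call when any array was left out except WT IVF replicate 3 and Atf7-/- IVF replicate 2 (adjusted p up to 0.102). Acat1 lost its call without WT natural mating replicate 3 or Atf7-/- natural mating replicate 3 (adjusted p up to 0.051) and under further quantile normalization.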
